A study of Mus musculus with 38 samples.

Results

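Calcium/calmodulin-dependent protein kinase II (CaMKII) is represented here by its subunit genes Camk2a, Camk2b, Camk2d and Camk2g, which encode the α, β, δ and γ subunits, and by Camk2n1, which encodes a small protein that inhibits the kinase. The 5 genes were taken by gene name, out of 22443 genes with a coding sequence (CDS) in the deposited counts. They were measured by PL-Ribo-seq, a form of ribosome profiling in which a biotin ligase, TurboID, marks what lies near it. Ribosomes among the marked material are captured on streptavidin, and the stretches of mRNA inside them, called footprints, are read by sequencing. Primary cortical neurons from CD-1 mouse embryos expressed TurboID-PSD95, a fusion to the postsynaptic protein PSD95 with the UTRs of its mRNA, or Pan-TurboID without a localization signal, in each case from a doxycycline-inducible lentivirus. Each of the 38 libraries was either an input (footprints from a part of the monosome fraction) or a streptavidin pulldown.

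The libraries fall into 14 groups. The KCl experiment held 24 libraries, namely 3 inputs and 3 pulldowns for each bait from neurons at rest and from neurons given 55 mM KCl during 1 h, which depolarizes them. A second experiment, with DHPG, had 3 inputs and 3 pulldowns of TurboID-PSD95 neurons treated for 10 min with 100 µM of this agonist, which acts on group I metabotropic glutamate receptors. The knockdown experiment held 8 TurboID-PSD95 libraries from resting and KCl-depolarized neurons given 20 nM siRNA against the translation factor eIF4G2 for 72 h, with 2 inputs and 2 pulldowns in each state. By the labels, tetrodotoxin and DL-AP5 preceded activation by 2 h, biotin was given for 30 min and cycloheximide for 2 min. For resting libraries, with or without knockdown, the labels give no such silencing, so activation and silencing cannot be told apart. Per the study's methods, the KCl was then taken off, and labelling took place over 30 min in new medium that again held both silencers. The study's methods give a shorter biotin labelling for DHPG, a conflict that was not settled here. Controls with a non-targeting siRNA were not analysed here. The resting reference for DHPG and the groups without knockdown therefore come from the KCl experiment, so that experiment and treatment cannot be told apart in levels. The replicates are cultures of neurons, and p-values measure only the spread between these samples.

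CaMKII is a holoenzyme of many subunits that assemble through a C-terminal association domain, called the hub. Calcium-bound calmodulin relieves autoinhibition of the kinase domain, and a subunit then phosphorylates a threonine in the regulatory segment of its neighbour, which keeps the kinase active after calcium has fallen. In forebrain neurons the α and β subunits are the most abundant, the mRNA of the α subunit is a classical dendritic message, and the β subunit also binds actin filaments. The δ and γ subunits are expressed more widely across tissues. Camk2n1 and its paralogue Camk2n2 encode small proteins that occupy the substrate site of the active kinase.

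The bases around the codon of the autophosphorylated threonine are shown because they make visible how far paralogues with a shared protein segment differ in sequence, which decides whether a footprint can be assigned to a gene. Each line has 30 bases of mm10 in the direction of the CDS, with codon 287, the threonine, in capitals.
Camk2b, chr11:5988979-5989008, minus strand: agacaggagACTgtggaatgtctgaagaag
Camk2d, chr3:126797732-126797761, plus strand: aggcaggagACTgtagactgcttgaagaaa
Camk2g, chr14:20760421-20760450, minus strand: cgccaagagACGgtagagtgcttacgcaaa
Over these 30 bases Camk2b and Camk2d differed at 6, Camk2d and Camk2g at 9, and Camk2b and Camk2g at 13. Across whole CDSs, of all windows of 28 nt, about the length of a footprint, 7 of 1410 in Camk2a, 7 of 1602 in Camk2b and 4 of 1563 in Camk2g occurred in another gene, and each of these lay in another of the 3 genes. Camk2d and Camk2n1 had no such window. Footprints of the subunits can thus be told apart over nearly their whole length. Whether strand was used and how multiply aligned reads were counted is not stated, and Camk2d overlaps an antisense gene, Gm15551, whose reads could be counted with it.

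The inhibitory stretch of Camk2n1 is shown because its CDS of 237 nt is far shorter than the 1437 to 1629 nt of the subunits, and genes with a short CDS moved together in the pulldown comparisons, as their values given with those of Camk2n1 show. The stretch spans an exon junction (plus strand, chr4:138455339-138455351 and chr4:138456718-138456734), and capitals mark codons inside the part that contacts the kinase.
Camk2n1: cggagcaagCGCGTTGTTATTgaagatgat
The transcripts used, the longest of each gene, had a 5′ UTR of 161 nt for Camk2a, 210 nt for Camk2b, 433 nt for Camk2d, 123 nt for Camk2g and 872 nt for Camk2n1. Camk2b lies at chr11:5969644-6066362, Camk2d at chr3:126596302-126846326, Camk2g at chr14:20734875-20794088 and Camk2n1 at chr4:138454314-138460123 (mm10).

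CDS counts of all longest transcripts summed to between 2047166 and 14635947 per library. Levels are given as CPM, the count scaled to a fixed total of these CDS counts, and between genes only per kilobase (kb) of CDS. Neuronal markers summed to 4220 to 9178 CPM, excitatory markers to 707 to 1417 CPM and inhibitory markers to 437 to 2224 CPM. Astrocyte markers summed to 219 to 1413 CPM, oligodendrocyte markers to 28.7 to 372 CPM, and microglial markers to at most 20.1 CPM, reached in knockdown inputs. These ranges pool inputs and pulldowns. With DHPG, excitatory markers had 922 to 928 CPM in inputs and 707 to 771 in pulldowns, and inhibitory markers 1025 to 1052 and 1481 to 1537. Astrocyte markers were lowest in the DHPG experiment, at 219 to 258 CPM against 502 to 1413 CPM elsewhere. Inhibitory markers were lowest in the knockdown experiment, at 437 to 822 CPM. Their part in the members' values was not tested. In such bulk samples fewer cells of a type and less RNA per cell cannot be told apart. Eif4g2, the target of the siRNA, stood at 284 to 338 CPM in knockdown inputs, and at 456 to 811 CPM in inputs of the KCl experiment. Dlg4, which encodes PSD95, was 22.1-fold higher in resting TurboID-PSD95 pulldowns than in inputs, where the bait carries its sequence.

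Camk2b had the most CDS footprints per kb of the 4 subunit genes in each of the 38 libraries, with 46.6% to 67.5% of their sum (median 61.6%). Camk2a held 9.48% to 32.3%, Camk2g 6.91% to 14.2% and Camk2d 2.67% to 13.7%. Levels of mRNA were not set beside these values. The lengths are those of the longest transcripts, and for each subunit gene another transcript had the most CDS counts. For Camk2b that transcript has a CDS of 2001 nt, against 1629 nt in the longest. In resting TurboID-PSD95 inputs, Camk2b stood at 322 ± 19.5 CPM per kb (SD, n = 3). Camk2n1 followed at 74.5 ± 16.4, Camk2d at 68.6 ± 1.62, Camk2a at 68.3 ± 14.9 and Camk2g at 62.5 ± 4.19 CPM per kb. Below Camk2b, neighbours in this order did not differ beyond their spread, while Camk2d was above Camk2g in each of the 3 libraries. In DHPG inputs the order was Camk2b at 627 ± 27.6, Camk2n1 at 242 ± 16.1, Camk2a at 233 ± 9.39, Camk2g at 81.9 ± 1.81 and Camk2d at 54.0 ± 2.84 CPM per kb. There, Camk2n1 and Camk2a lay within each other's spread and above Camk2g and Camk2d.

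**Figure D1:**
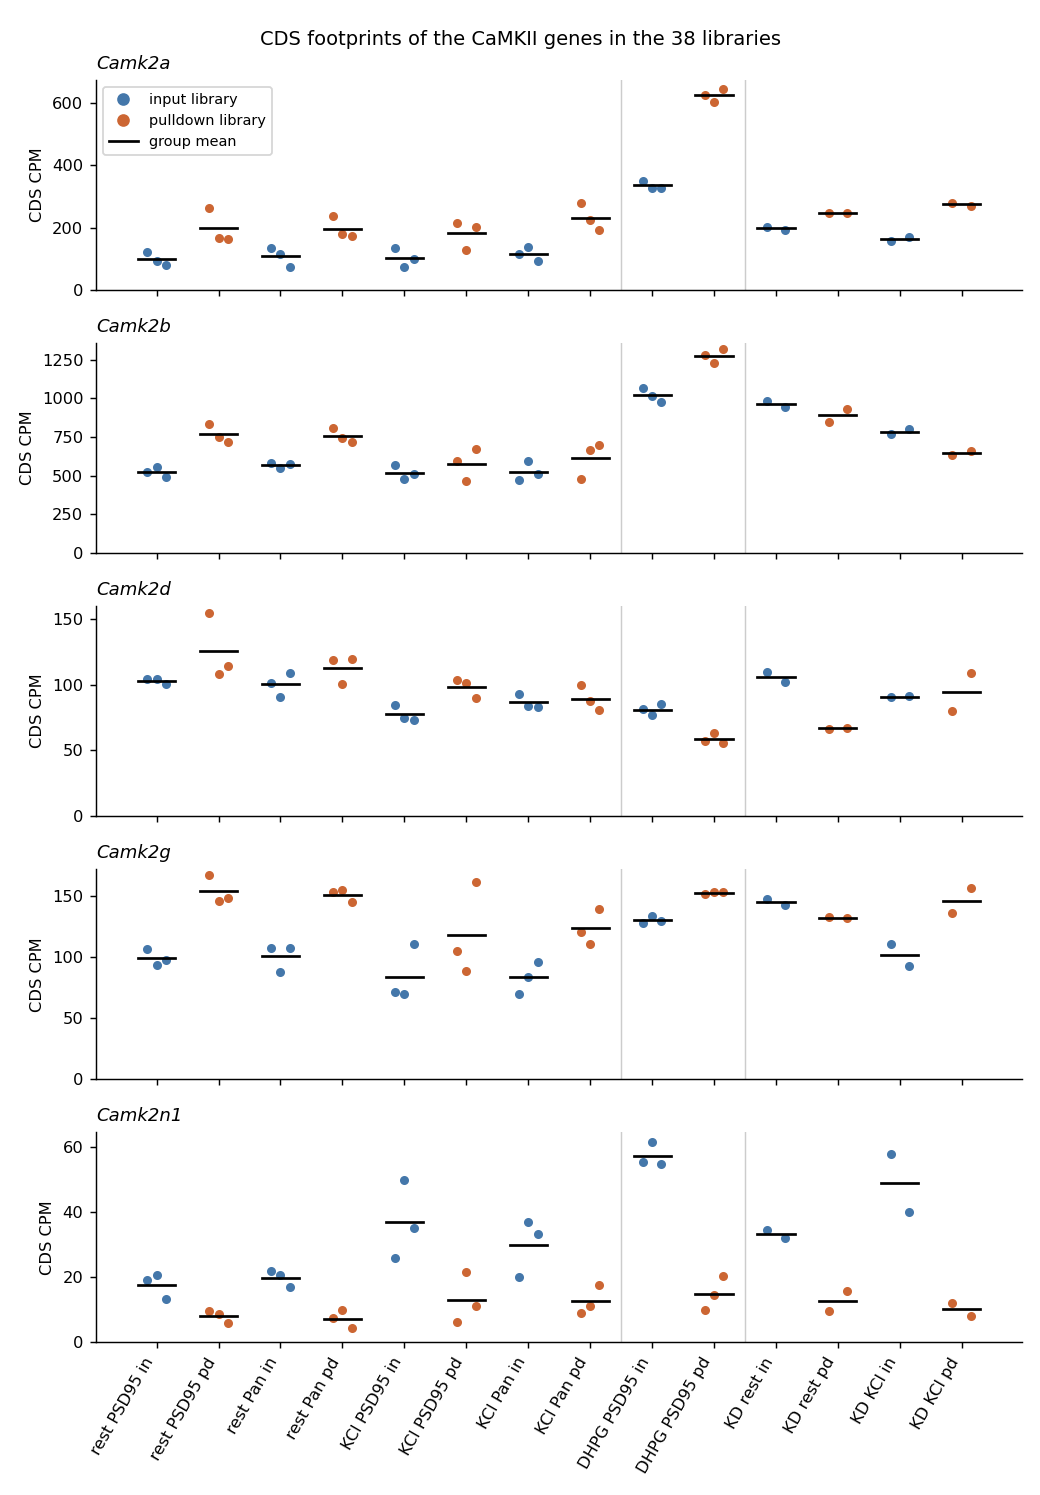
CDS footprints of the 5 genes in CPM (y axis, from 0) in each of the 38 libraries (points), by group (x axis; in, input; pd, pulldown; KD, eIF4G2 knockdown), with group means as bars and grey lines between experiments. Group means of Camk2a pulldowns lie above, and those of Camk2n1 pulldowns below, the means of the matching inputs, and Camk2a is higher in the DHPG experiment than in any other.

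Camk2a, the gene of the α subunit, was higher in pulldowns than in inputs in every setting measured. In resting neurons its TurboID-PSD95 inputs had 122, 92.6 and 80.1 CPM and the pulldowns 265, 167 and 165 CPM. The lowest pulldown lay above the highest input, and how many other genes did the same was not computed. Against the mean of both baits' inputs, Camk2a rose by 0.97 ± 0.23 on the log2 scale (SE; adjusted p = 0.0034, from the quasi-likelihood F test of edgeR, Benjamini-Hochberg adjusted over all genes). Of the members, Camk2a, Camk2b, Camk2g and Camk2n1 passed the threshold in this comparison, in which 31.1% of all genes tested did. After KCl, TurboID-PSD95 inputs had 135, 74.0 and 98.3 CPM and pulldowns 215, 127 and 201 CPM, a difference of 0.76 ± 0.23 (adjusted p = 0.024). In that comparison 18.0% of genes passed, and of the members Camk2a, Camk2g and Camk2n1 did.

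The unlocalized Pan-TurboID gave the same direction for Camk2a. Resting Pan inputs had 136, 116 and 74.1 CPM and Pan pulldowns 237, 180 and 174 CPM, a log2 difference of 0.90 ± 0.27 (adjusted p = 0.040; 9.54% of all genes passed). After KCl the Pan inputs had 114, 138 and 92.5 CPM and the pulldowns 280, 224 and 192 CPM, a difference of 1.08 ± 0.27 (adjusted p = 0.024; 8.75% of all genes passed). In both Pan comparisons Camk2a and Camk2n1 passed. With the replicate number, which marks a separate processing run in this experiment, as a block, the genes that passed rose from 1240 to 2414 at rest and from 1138 to 2430 after KCl. Camk2g then also passed. The difference between the baits was tested directly, as the difference between their pulldown enrichments over both states (TurboID-PSD95 minus Pan-TurboID). For Camk2a it was -0.03 ± 0.27 and for the other members it lay between -0.03 and 0.19, and none passed (adjusted p = 1.0 for each). In that test 0.00769% of genes passed, which is Dlg4 alone.

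Without replicate 3, adjusted p for Camk2a was 0.091 at rest and 0.35 after KCl with TurboID-PSD95, and 0.32 and 0.25 with Pan-TurboID, with log2 differences of 0.57 to 1.07. The numbers of genes that passed in these 4 comparisons then fell to 16, 17, 0 and 0. The Pan calls for Camk2a were also lost without replicate 2 (adjusted p = 0.16 at rest and 0.088 after KCl), after KCl without replicate 1 (0.053), and at rest with the trend of counts with CDS length removed (0.068). These fits, like the main tests, had no replicate block. With all replicates and the block, the edgeR test gave Camk2a adjusted p = 2.4e-04 and 0.0030 with TurboID-PSD95, at rest and after KCl. With Pan-TurboID it gave 0.0052 and 0.0035.

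After DHPG, Camk2a inputs had 351, 327 and 329 CPM and pulldowns 626, 605 and 647 CPM. The log2 difference was 1.11 ± 0.06 (adjusted p = 5.8e-12). All 5 members passed there, in a comparison in which 79.7% of genes did. In knockdown neurons at rest, inputs had 203 and 193 CPM and pulldowns 248 and 247 CPM, a difference of 0.43 ± 0.10 (adjusted p = 0.0012; 45.5% of genes passed). After KCl with knockdown, inputs had 157 and 169 CPM and pulldowns 281 and 268 CPM, a difference of 0.86 ± 0.11 (adjusted p = 3.7e-07; 48.8% of genes passed). Over the 19 pairs of an input and the pulldown with its number, Camk2a was higher in the pulldown in 19, by 1.22-fold to 2.46-fold (median 1.79). Of 11401 genes with enough counts, 11.8% were higher in the pulldown in all pairs.

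Camk2b, which encodes the actin-binding β subunit, was higher in resting TurboID-PSD95 pulldowns, by 0.51 ± 0.15 (adjusted p = 0.010). Inputs had 525, 557 and 494 CPM and pulldowns 836, 748 and 718 CPM. After KCl the inputs stayed at 570, 479 and 511 CPM, while the pulldowns had 593, 466 and 675 CPM. There the groups overlapped, and the difference of 0.16 ± 0.15 did not pass (adjusted p = 0.45). The change of the enrichment with KCl was tested itself and was -0.35 ± 0.21 for Camk2b (adjusted p = 1.0, edgeR). In this test of change 0% of genes passed (342 at an unadjusted p under 0.05), and the other members had changes between -0.21 and -0.05. The likelihood ratio test of edgeR passed 2 genes and DESeq2 1 gene. With DHPG the difference for Camk2b was 0.53 ± 0.05 (adjusted p = 4.0e-08), from inputs of 1067, 1018 and 977 CPM to pulldowns of 1282, 1232 and 1317 CPM.

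In knockdown neurons Camk2b was not higher in pulldowns. The differences were -0.00 ± 0.08 at rest and -0.18 ± 0.08 after KCl (adjusted p = 0.97 and 0.073). The value after KCl passed when libraries were scaled by their totals alone (-0.28, adjusted p = 0.0054), with the trend of CDS length removed (-0.32, adjusted p = 0.0027) and without the resting knockdown pulldown 1 (-0.20, adjusted p = 0.027). Without replicate 3 the call of Camk2b in resting neurons of the KCl experiment was lost (adjusted p = 0.13). Over the 19 pairs, scaled to library totals, Camk2b was higher in the pulldown in 14 (ratios 0.821 to 1.59), where 11.8% of genes were higher in all.

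The ratio of β to α footprints was lower in the pulldown than in its input in all 19 pairs, those of Pan-TurboID included. Camk2a alone was higher in the pulldown in each of them, and how often other gene pairs shift like this was not computed. In resting neurons the mean ratio per kb went from 4.85 to 3.53 with TurboID-PSD95 and from 4.94 to 3.44 with Pan-TurboID. Per kb, Camk2b exceeded Camk2a by 2.62-fold to 6.84-fold in inputs and by 1.51-fold to 3.96-fold in pulldowns. The ratio in a pulldown was 0.413 to 0.875 times that of its input (median 0.674). It was also lower after KCl than at rest in 14 of 16 same-numbered pairs (median 0.858), which was likewise not counted for other gene pairs.

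**Figure D2:**
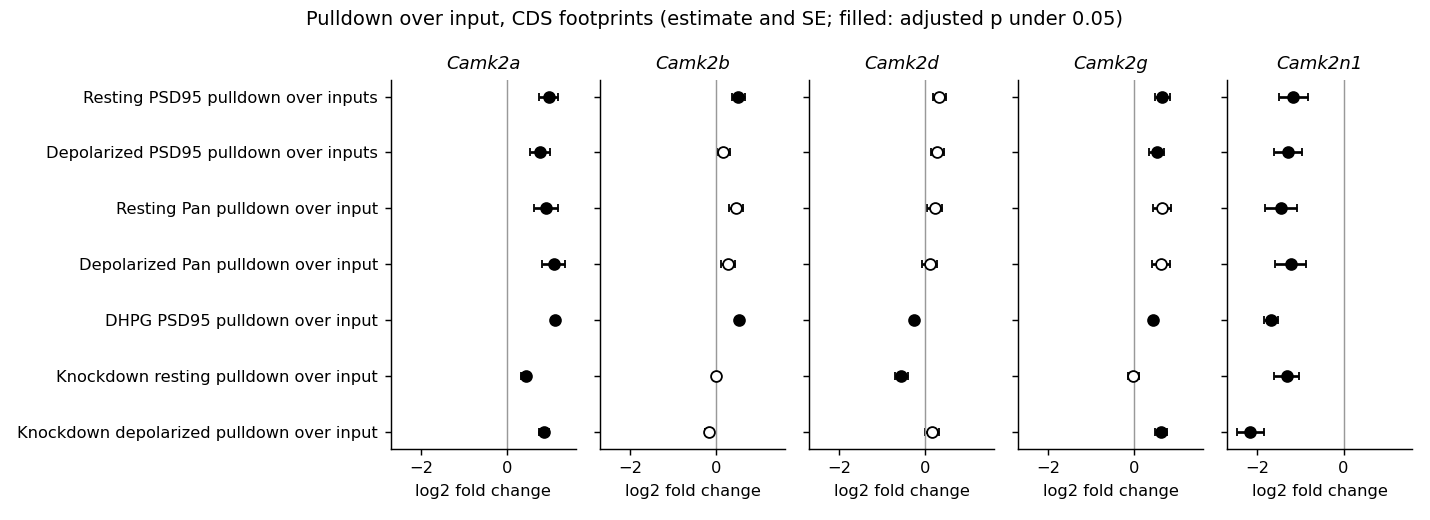
Log2 fold change of CDS footprints in pulldowns over inputs (x axis; estimate with its standard error) for the 5 genes (panels) in 7 comparisons (rows), filled where the adjusted p was under 0.05. Camk2a lies right of 0 and Camk2n1 left of 0 in all 7 rows, and Camk2d lies on both sides.

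Camk2g, the gene of the γ subunit, was higher in resting TurboID-PSD95 pulldowns by 0.65 ± 0.17 (adjusted p = 0.0077). Inputs had 107, 93.6 and 97.8 CPM and pulldowns 167, 145 and 149 CPM. After KCl the difference was 0.52 ± 0.18 (adjusted p = 0.042), where replicate 3 had the highest input and the highest pulldown, 111 and 161 CPM, against 71.2 and 70.0 CPM in the other inputs and 105 and 88.6 CPM in the other pulldowns. With Pan-TurboID the differences were 0.63 ± 0.21 at rest and 0.62 ± 0.21 after KCl. These just missed the threshold (adjusted p = 0.0502 and 0.056) and passed with the replicate block (0.017 and 0.022). With DHPG Camk2g rose by 0.44 ± 0.06 in pulldowns (adjusted p = 5.4e-06). In knockdown neurons the difference was -0.02 ± 0.13 at rest and 0.61 ± 0.14 after KCl (adjusted p = 0.91 and 6.3e-04).

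The Camk2g calls of the KCl experiment depended on settings. Without replicate 3, adjusted p was 0.085 at rest and 0.38 after KCl. The call after KCl was also lost without replicate 1 (0.15), with library totals alone (0.058), without the filter on low counts (0.063), with the trend of CDS length removed (0.11) and with the TurboID-PSD95 inputs alone as reference (0.081). Its direction was kept in all of these. Over the 19 pairs, scaled to library totals, Camk2g was higher in the pulldown in 17 (0.897 to 1.77, median 1.42), where 11.8% of genes were higher in all.

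Camk2d, the gene of the δ subunit, differed in sign between experiments and, within the knockdown experiment, between rest and KCl. In resting TurboID-PSD95 neurons its inputs had 104, 104 and 100.1 CPM and its pulldowns 155, 108 and 114 CPM, and the difference of 0.33 ± 0.15 did not pass (adjusted p = 0.099; with DESeq2 0.040). After KCl the difference was 0.28 ± 0.15 (adjusted p = 0.21), and with Pan-TurboID it was 0.22 ± 0.18 at rest and 0.10 ± 0.18 after KCl. After DHPG the inputs had 81.3, 76.5 and 85.0 CPM and the pulldowns 57.1, 63.0 and 55.7 CPM, a fall of 1.19-fold in the fit (log2 -0.26 ± 0.08, adjusted p = 0.0086). In resting knockdown neurons inputs had 110 and 102 CPM and pulldowns 66.5 and 67.0 CPM (log2 -0.55 ± 0.16, adjusted p = 0.0054). That call was lost without the resting knockdown input 1 (-0.51, adjusted p = 0.066). After KCl with knockdown the difference was 0.15 ± 0.16 (adjusted p = 0.46). In same-numbered pairs, Camk2d was higher in the pulldown in 11 of 12 pairs of the KCl experiment and in 1 of 7 pairs of the DHPG and knockdown experiments. That pair was from depolarized knockdown neurons (ratio 1.19). These pairs were scaled to library totals, not by the factors of the tests. On that scale 15.7% of 11401 genes were higher and 20.5% lower in all 12 pairs. In all 7 pairs 23.1% were higher and 33.7% lower.

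Camk2d was the only member whose enrichment differed between DHPG and rest when the difference was tested. It was -0.62 ± 0.17 on the log2 scale (adjusted p = 0.042), and 6.80% of all genes passed that test (870 genes, and 1805 with the replicate block). The other members had differences between -0.70 and 0.02 and did not pass (adjusted p = 0.27 to 0.97). Leaving out any DHPG replicate number raised the adjusted p of Camk2d to between 0.16 and 0.27, and without replicate 1 of the KCl experiment it was 0.095, with log2 values of -0.69 to -0.45. It was 0.0500 without the filter on low counts and 0.056 with the length trend removed. The DHPG libraries and their resting reference came from different experiments.

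Camk2n1, the gene of the inhibitor, was lower in pulldowns than in inputs everywhere. In resting TurboID-PSD95 neurons inputs had 19.1, 20.6 and 13.3 CPM and pulldowns 9.65, 8.57 and 5.86 CPM. The difference was -1.16 ± 0.34 (adjusted p = 0.012), and it was -1.29 ± 0.33 after KCl (adjusted p = 0.010). With Pan-TurboID it was -1.45 ± 0.37 at rest and -1.23 ± 0.36 after KCl (adjusted p = 0.024 and 0.040). After DHPG inputs had 55.3, 61.6 and 54.7 CPM and pulldowns 9.99, 14.5 and 20.5 CPM, a difference of -1.68 ± 0.16 (adjusted p = 2.6e-08). In knockdown neurons it was -1.32 ± 0.29 at rest and -2.16 ± 0.32 after KCl (adjusted p = 6.7e-04 and 3.6e-06). Over the 19 pairs the pulldown was lower in 19, at 0.181 to 0.531 times the input (median 0.339), and 18.0% of genes were lower in all pairs.

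Other genes with a short CDS were also lower in pulldowns. Genes with a CDS of 150 to 350 nt had a median log2 difference of -1.11 in resting TurboID-PSD95 pulldowns over 586 genes, against -0.04 over all genes, and 45.4% of them lay below Camk2n1. After KCl their median was -0.78, and 11.8% lay below Camk2n1. With Pan-TurboID 16.6% lay below it at rest (median -0.97) and 22.9% after KCl (median -0.91). After DHPG the median of such genes was -1.56 and 35.1% lay below Camk2n1. In knockdown neurons 46.8% did at rest (median -1.28) and 19.5% after KCl (median -1.57). In all 7 comparisons Camk2n1 thus lay below the median of these genes. When each library's trend of counts with CDS length was removed, Camk2n1 differed by -0.00 at rest, -0.48 after KCl, -0.20 after DHPG, and -0.05 and -0.57 in knockdown neurons. With Pan-TurboID the values were -0.44 at rest and -0.24 after KCl. None of these 7 passed (adjusted p = 0.19 to 1.0). For the subunits the same correction changed less, and Camk2a kept 0.90 at rest (adjusted p = 0.0045) and 0.97 after DHPG (adjusted p = 7.4e-11). The KCl-experiment calls of Camk2n1 were lost without replicate 3 (adjusted p = 0.12 to 0.29). Some were also lost without replicate 2 (0.065 at rest, 0.14 and 0.20 with Pan-TurboID) and without replicate 1 (0.063, Pan-TurboID after KCl).

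No subunit gene passed the test for a change of its whole CDS with KCl in the KCl experiment. In inputs the log2 changes were 0.11 ± 0.19 for Camk2a, -0.03 ± 0.12 for Camk2b, -0.28 ± 0.13 for Camk2d and -0.22 ± 0.15 for Camk2g, with adjusted p = 0.14 to 0.90, in a comparison in which 15.4% of genes passed. Camk2n1 rose in inputs by 0.86 ± 0.25 (adjusted p = 0.019), from 19.1, 20.6, 13.3, 21.9, 20.7 and 17.1 CPM at rest to 26.0, 50.0, 35.2, 19.9, 37.0 and 33.2 CPM over both baits. Genes with a CDS of 150 to 350 nt had a median of 0.47, and with the length trend removed Camk2n1 changed by 0.42 (adjusted p = 0.18). The call was also lost without replicate 2 (adjusted p = 0.11) and without replicate 3 (0.23). In TurboID-PSD95 pulldowns no member passed (-0.38 to 0.74; 6.58% of genes passed), and in Pan pulldowns none did either (-0.27 to 0.87; 5.03% of genes, 654 against 982 with the replicate block). Camk2d was lower after KCl in all 12 same-numbered pairs of the KCl experiment, at 0.667 to 0.937 times its resting level, as were 8.80% of 11401 genes.

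In knockdown neurons, Camk2b fell with KCl in inputs, from 984 and 946 CPM to 770 and 801 CPM (log2 -0.28 ± 0.08, adjusted p = 0.012; 19.3% of genes passed). It also fell in pulldowns, from 847 and 935 CPM to 636 and 657 CPM (log2 -0.46 ± 0.08, adjusted p = 1.4e-04; 22.2% of genes passed). Camk2g fell in inputs by 0.49 ± 0.13 on the log2 scale (adjusted p = 0.0089) and had 0.15 ± 0.13 in pulldowns. Camk2d rose in pulldowns, from 66.5 and 67.0 CPM to 80.2 and 109 CPM (log2 0.50 ± 0.17, adjusted p = 0.033). Camk2a had -0.27 ± 0.11 in inputs and 0.15 ± 0.11 in pulldowns, neither past the threshold (adjusted p = 0.074 and 0.33). The change of the KCl response with knockdown, tested against the KCl experiment, passed for no member in inputs (adjusted p = 1.0 for each; 0.00759% of genes passed) or in pulldowns (adjusted p = 0.26 to 0.97; 0.448% of genes passed, 59 against 98 with the replicate block). In pulldowns it was -0.99 ± 0.59 for Camk2n1 and 0.87 ± 0.28 for Camk2d (adjusted p = 0.62 and 0.26).

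With 2 libraries a group, several of these knockdown calls rested on single libraries. Camk2b in inputs was lost without resting input 1 (adjusted p = 0.16), resting input 2 (0.076) or depolarized input 1 (0.11), and with the length trend removed (0.19). Camk2g in inputs was lost without resting input 1 (0.10), resting input 2 (0.064) or depolarized input 2 (0.13), and with the length trend removed (0.059). Camk2d in pulldowns was lost without either resting input (0.062 and 0.061), either resting pulldown (0.098 and 0.077) or depolarized pulldown 2 (0.28 on the log2 scale, adjusted p = 0.31). Camk2b in pulldowns passed in all 16 alternatives (-0.53 to -0.39).

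Along the CDS of Camk2b, the distribution of footprints differed between rest and KCl, although the total in inputs did not pass the test. The exons of its longest transcript were grouped after their values had been seen, so that what follows is a description without a test. The kinase block comprises the first 12 coding exons (946 nt), and the hub block comprises coding exons 17 to 20 (453 nt), which encode the C-terminal association domain and are in all 10 coding transcripts of the gene. At rest, the hub block had 371, 378 and 346 CPM per kb in TurboID-PSD95 inputs and 500, 472 and 489 CPM per kb in Pan inputs. After KCl it had 303, 181 and 185 CPM per kb in TurboID-PSD95 inputs and 256, 348 and 169 CPM per kb in Pan inputs. All depolarized values lay below the resting ones except Pan input 2, at 348, which lay just above the lowest resting input.

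Pulldowns moved in the same way. The hub block of Camk2b fell from 665, 658 and 488 CPM per kb to 320, 231 and 294 CPM per kb in TurboID-PSD95 pulldowns, and from 661, 600 and 508 CPM per kb to 232, 368 and 328 CPM per kb in Pan pulldowns. In knockdown neurons it fell from 653 and 640 CPM per kb to 405 and 377 CPM per kb in inputs, and from 641 and 648 CPM per kb to 305 and 318 CPM per kb in pulldowns. In all 16 same-numbered pairs the depolarized library was lower, at 0.346 to 0.817 times the resting one (median 0.524). The kinase block was higher after KCl in 9 of 16 pairs (ratios 0.803 to 1.37, median 1.09).

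**Figure D3:**
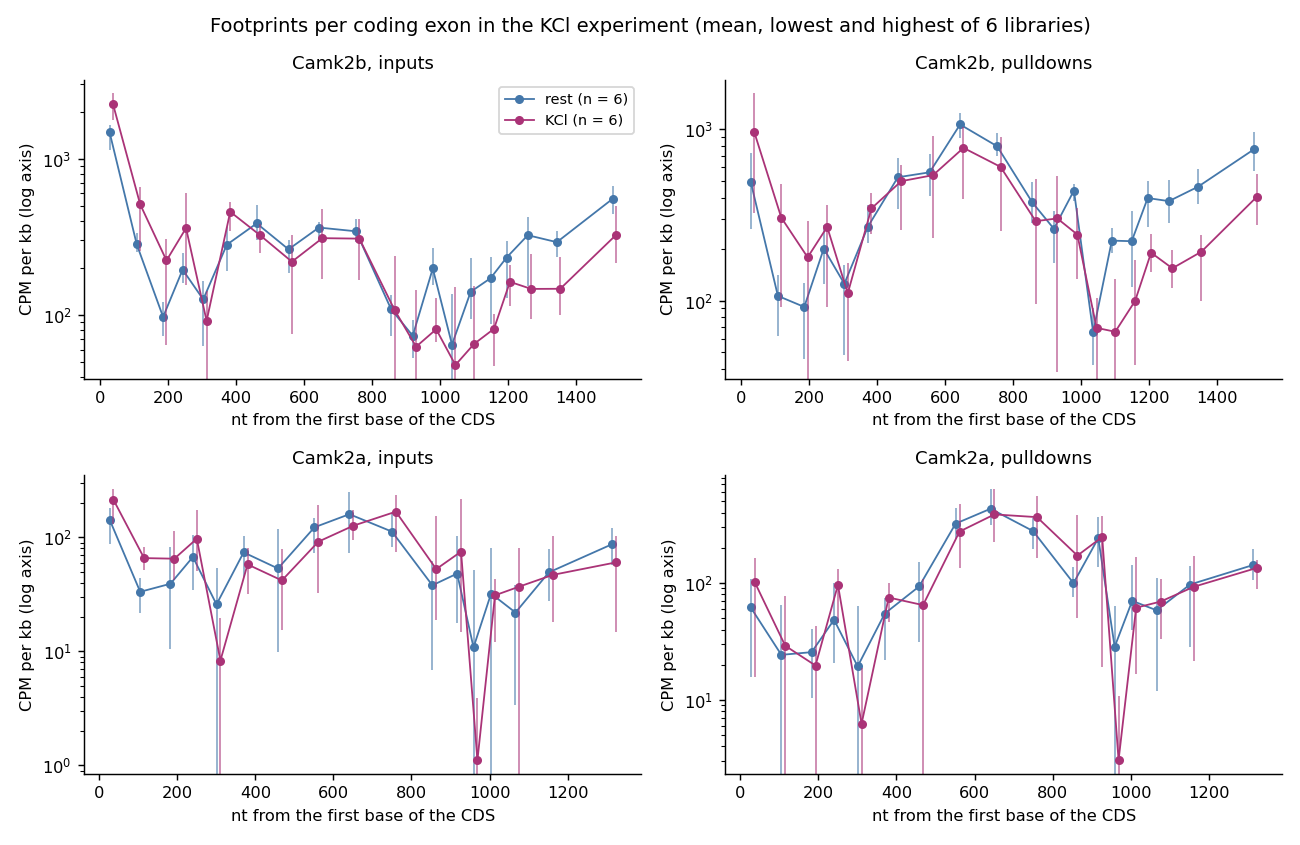
Footprints per coding exon of Camk2b and Camk2a in the KCl experiment, as CPM per kb (log axis) at the exon's distance from the first base of the CDS, in inputs and pulldowns; points are means and vertical lines the lowest to highest of 6 libraries, which run off the axis where the lowest is 0, and exons under 30 nt are left out. In Camk2b the KCl points lie above rest in the first exons and below it in the last ones, while those of Camk2a, also above rest in the first exons of inputs, cross.

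By exon, the 6 resting inputs of the KCl experiment had a mean of 1480 ± 180 CPM per kb in the first coding exon of Camk2b and the 6 depolarized inputs 2245 ± 359. In the last coding exon they had 554 ± 99.3 and 325 ± 114 CPM per kb. The first 4 coding exons were all higher after KCl in inputs, by 1.52-fold to 2.30-fold, and coding exons 13 to 20 were all lower, at 0.408 to 0.740 times rest. In pulldowns of the KCl experiment the first 4 were again all higher (1.34-fold to 2.87-fold) and coding exons 15 to 20 all lower (0.293 to 0.531 times). In knockdown inputs the same exons 15 to 20 were lower, at 0.262 to 0.633 times rest, and the first 4 were higher (1.20-fold to 2.17-fold). In knockdown pulldowns exons 15 to 20 were also lower (0.248 to 0.831 times), but 2 of the first 4 were lower and the ratios of these 4 ranged from 0.362 to 1.28. Of coding exons 5 to 12, which lie in the kinase block, 7 of 8 were lower in inputs of the KCl experiment (median 0.853). In its pulldowns 6 of 8 were lower (median 0.914). In knockdown neurons 7 of 8 were lower in inputs (median 0.667) and 4 of 8 in pulldowns (median 1.03). How many other genes show such changes by exon was not computed.

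The ratio of hub to kinase density sets these blocks against each other in a single number per library. For Camk2b it was 1.09, 1.03 and 1.06 in resting TurboID-PSD95 inputs, 1.49, 1.49 and 1.44 in resting Pan inputs, 0.685, 0.442 and 0.424 in depolarized TurboID-PSD95 inputs and 0.713, 0.806 and 0.379 in depolarized Pan inputs. Resting inputs of the baits also differed without overlap, with means of 1.06 for TurboID-PSD95 and 1.47 for Pan-TurboID, which was not tested. All depolarized inputs lay below all resting inputs. Depolarized pulldowns of the KCl experiment, at 0.545 to 0.763, likewise lay below the resting ones at 1.06 to 1.63. In knockdown neurons the ratio went from 0.979 and 1.01 to 0.683 and 0.599 in inputs. DHPG inputs had 0.868, 0.932 and 0.964 and DHPG pulldowns 0.844, 0.905 and 0.993. These lay above every depolarized value and below every resting value of the KCl experiment.

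The hub and kinase blocks were defined for the subunit genes only, so their counts of pairs have no share over other genes beside them. By another measure, the share of counts before the midpoint of the CDS, such shifts exist in other genes but were rarely as large. The share of CDS counts in exons centred before the midpoint of the CDS was higher after KCl in 16 of 16 pairs for Camk2b. Of 2034 genes with a CDS over 1000 nt and enough counts, 3.98% did the same, and the median gene did so in 10 pairs. For Camk2b the mean share rose by 17.9 percentage points in inputs, against a median of 3.69 over these genes, and 1.47% of genes had a larger rise. In pulldowns it rose by 15.3 points against a median of 2.86, and 3.20% of genes had a larger rise. All 6 depolarized inputs lay above all 6 resting inputs, as in 5.06% of genes, and the same held for pulldowns, as in 3.88% of genes.

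The hub block of Camk2g was lower after KCl in 15 of 16 pairs (median ratio 0.620). In the KCl experiment it was lower in all 12 pairs with a median ratio of 0.498, against 0.524 for Camk2b there. The kinase block of Camk2g was lower in 9 of 16 pairs (median 0.836). The hub block of Camk2d was lower in 13 of 16 pairs (0.393 to 1.19, median 0.685), 10 of them among the 12 of the KCl experiment, and in Pan inputs its mean went from 94.8 to 61.0 CPM per kb. Its ratio of hub to kinase density was lower in 11 of 16 pairs. For Camk2g the mean of that ratio fell from 1.05 to 0.521 in Pan inputs. For Camk2a it fell in inputs, from 0.667 to 0.431 with TurboID-PSD95, from 0.896 to 0.649 with Pan-TurboID and from 0.720 to 0.543 with knockdown. In pulldowns of Camk2a it went from 0.640 to 0.745, from 0.771 to 0.568 and from 0.827 to 0.941 in the same order. For Camk2a the hub block was lower in 12 of 16 pairs with a median ratio of 0.928, and the share before the midpoint was higher in 5 of 16. For Camk2d and Camk2g that share was higher in 9 and 14 of 16 pairs. As in Camk2b, coding exons 1 to 4 were all higher after KCl in inputs of the KCl experiment. The rise was 1.44-fold to 1.97-fold for Camk2a, 1.27-fold to 2.84-fold for Camk2d and 1.16-fold to 1.94-fold for Camk2g. In its pulldowns exon 3 of Camk2a and exon 2 of Camk2d were lower, at 0.768 and 0.409 times rest. How many other genes had higher first exons after KCl was not computed. Over the 2034 genes, the share before the midpoint rose by a median of 3.69 points in inputs, so a rise near the start is not particular to the subunits.

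**Figure D4:**
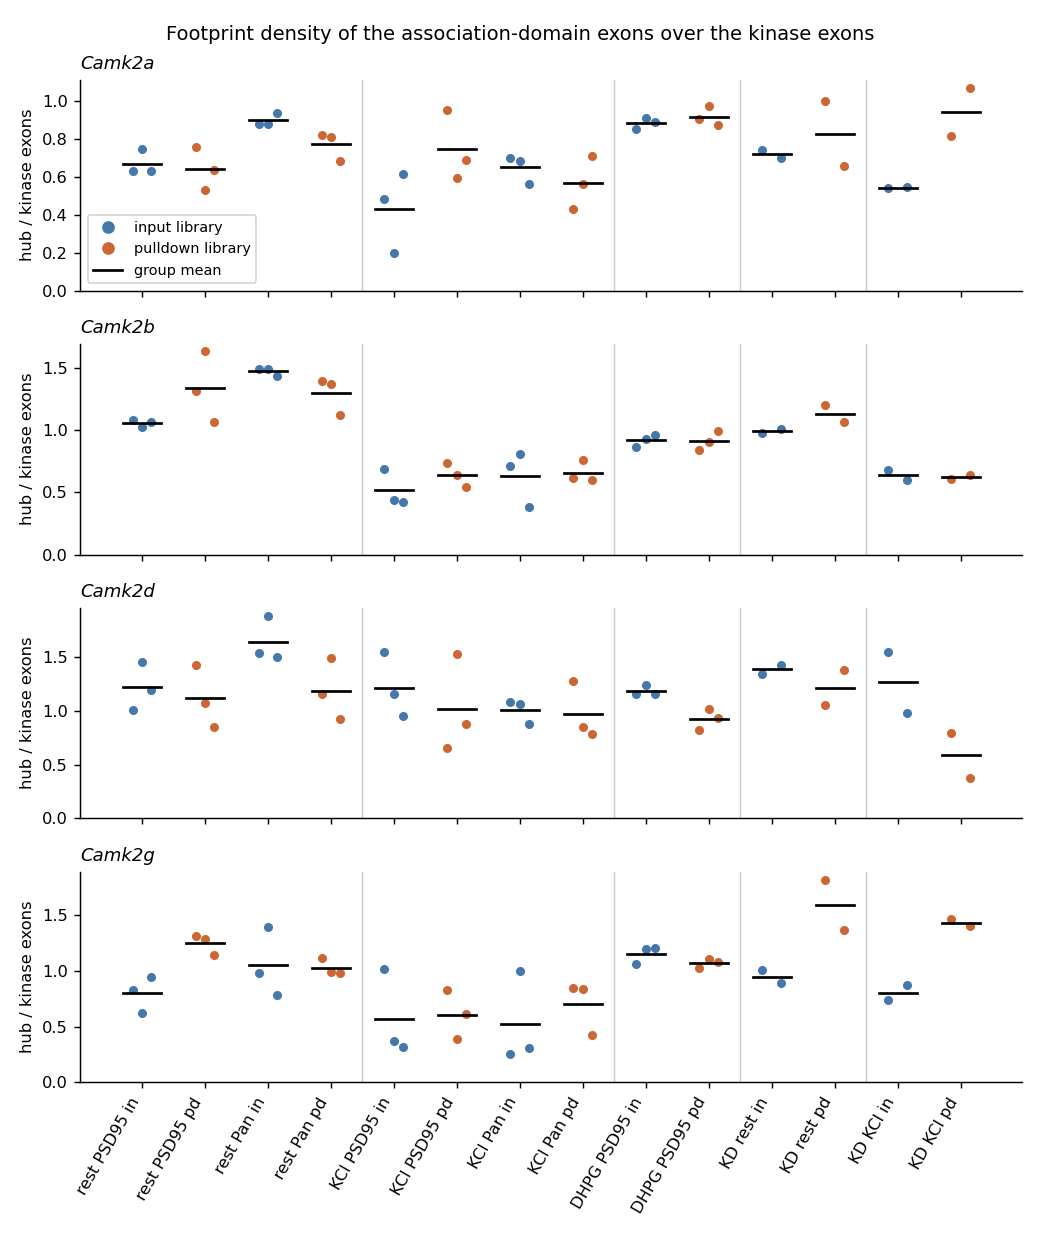
Ratio of footprint density in the association-domain (hub) exons to that in the kinase exons (y axis, from 0) for the 4 subunit genes in each library (points) by group (x axis), with group means as bars. For Camk2b all depolarized libraries lie at or below 0.806 and all resting ones at or above 0.979, with DHPG between 0.844 and 0.993.

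Pulldowns also held fewer footprints at the very start of the subunit CDSs. The first coding exon had a density relative to the whole CDS that was lower in the pulldown than in its input in all 19 pairs for Camk2a and Camk2b, and in 18 of 19 for Camk2d and Camk2g. Among 536 comparable genes 42.7% were lower in all pairs and the median gene was lower in 18, so the subunits are like most genes in this. For Camk2b the relative density was 3.55 to 4.86 in the 6 resting inputs and 0.597 to 1.59 in the 6 resting pulldowns. Camk2n1, whose first coding exon makes up most of its CDS, was lower in 6 of 19.

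Footprint 5′ ends in the 5′ UTR, counted without an offset to the decoded codon, include those of ribosomes on the first codons. Their share of the 5′ UTR and CDS counts together was 27.0% to 45.4% for Camk2a, 7.14% to 19.5% for Camk2b, 30.3% to 63.1% for Camk2d and 9.40% to 23.4% for Camk2g in inputs of the KCl experiment. In its pulldowns the shares were 1.34% to 30.3%, 2.20% to 15.5%, 10.2% to 42.6% and 0.977% to 8.46%. In all 19 pairs the pulldown had the lower share for each of the 4 subunit genes, as it did for 35.3% of 9529 genes. Camk2n1 differed in level. Its share was 66.8% to 81.8% in inputs and 52.5% to 85.3% in pulldowns over all libraries, lower in the pulldown in 9 of 19 pairs, while the median over all genes lay between 4.17% and 29.8%. With a 5′ UTR of 872 nt against a CDS of 237 nt, its lengths differ in the same direction.

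**Figure D5:**
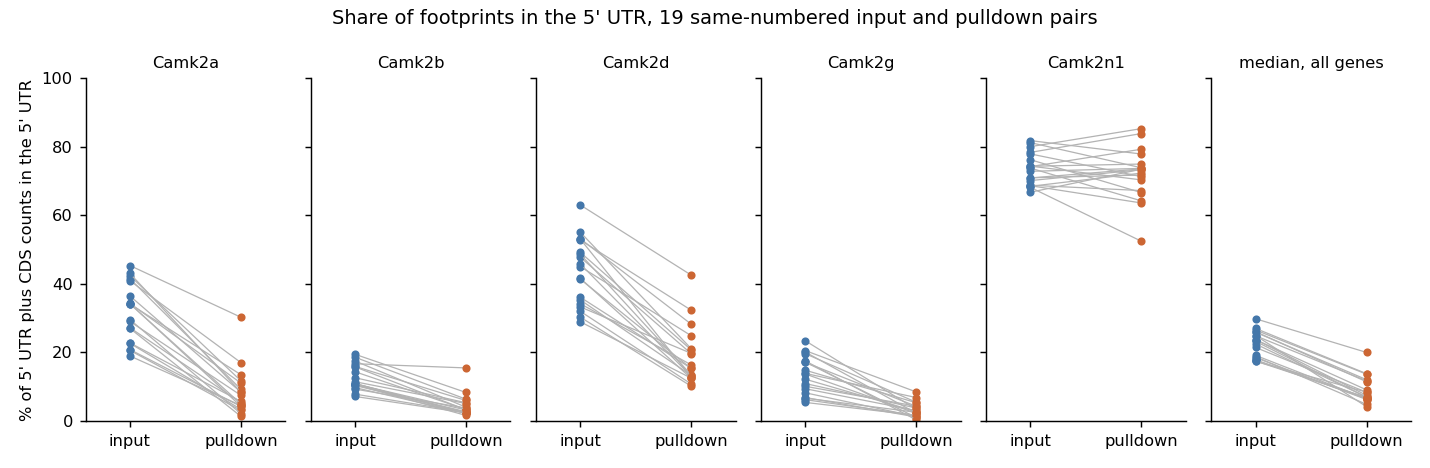
Percent of 5′ UTR plus CDS counts that lie in the 5′ UTR (y axis, 0 to 100) in each input and the pulldown with its number (points joined by lines, 19 pairs), for the 5 genes and for the median over all genes with enough 5′ UTR counts. Lines fall from input to pulldown for all 4 subunit genes, whereas for Camk2n1 they stay between 52.5% and 85.3%.

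After KCl no member's 5′ UTR count passed the test, in inputs (log2 -0.23 to 0.66, adjusted p = 1.0 for each) or in TurboID-PSD95 pulldowns (0.21 to 1.07, adjusted p = 0.35 to 0.87). Of all genes 0.442% passed in inputs and 0.275% in pulldowns, 45 and 28 genes, and with the replicate block 143 and 212 did. On this scale the median over all genes was 0.17 in inputs and 0.65 in pulldowns, so that in pulldowns Camk2a at 0.56 ± 0.53, Camk2d at 0.51 ± 0.50 and Camk2g at 0.21 ± 0.61 lay below the median gene, and Camk2b at 0.81 ± 0.51 and Camk2n1 at 1.07 ± 0.51 above it. Replicate 2 of the depolarized TurboID-PSD95 pulldowns had 30.3% of Camk2a counts in the 5′ UTR, against 1.34% and 8.41% in the others. Its median over genes was 20.0%, against 4.17% and 11.4%. Without replicate 2 the pulldown changes of Camk2a and Camk2d were -0.41 and -0.11.

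In 3′ UTRs footprints were few, and Camk2b had the most, with at most 29.7 CPM in a library. Camk2a, Camk2b and Camk2g had enough counts for a test after KCl. None passed in inputs (adjusted p = 0.82 to 1.0; 1.98% of genes tested passed) or in TurboID-PSD95 pulldowns (adjusted p = 0.88 to 1.0; 0.415% of genes passed, 9 against 14 with the replicate block).

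A list of 25 other genes of calcium and calmodulin signalling placed the members in their pathway. In resting TurboID-PSD95 pulldowns 2 of the 25 were higher and 6 lower, with a median log2 difference of -0.14 against -0.04 over all genes. These 8 make up 32.0% of the list, beside 31.1% of all genes. The higher ones were Camkv, a calmodulin-binding protein related to the kinases (0.62 ± 0.19, adjusted p = 0.016), and Ppp3cb, a catalytic subunit of calcineurin (0.78 ± 0.25, adjusted p = 0.019). Camk2n2, the other inhibitor gene, was lower by 1.79 ± 0.32 (log2 -1.79, adjusted p = 6.7e-04), as was Pcp4, a small calmodulin-binding protein (-1.20 ± 0.24). Both have a short CDS, of 240 and 189 nt, and genes of 150 to 350 nt had a median of -1.11 in this comparison. After DHPG 6 were higher and 15 lower (median -0.77 against 0.04), with Camkv at 1.05 ± 0.05, so that 84.0% of the list passed beside 79.7% of all genes. In knockdown neurons 3 were higher and 13 lower at rest (16 of 25, beside 45.5% of all genes), and 4 and 11 after KCl (15 of 25, beside 48.8%).

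In inputs of the KCl experiment none of the 25 rose with KCl and 6 fell, 24.0% of the list beside 15.4% of all genes. Camkk2, a kinase that activates CaMKI and CaMKIV, fell most clearly (-1.15 ± 0.17, adjusted p = 2.2e-05), and the calcineurin genes Ppp3ca and Ppp3cb fell by 0.55 and 0.90 on the log2 scale. Camkk2 also fell in TurboID-PSD95 pulldowns, by 1.20 ± 0.24 (adjusted p = 0.0024). The inhibitor gene Camk2n2 rose there by 1.20 ± 0.35 (adjusted p = 0.035), where genes with a CDS of 150 to 350 nt had a median of 0.80.

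Of 16 genes for substrates and anchors of CaMKII at the synapse, 4 were higher and 1 lower in resting TurboID-PSD95 pulldowns, 31.2% of the list beside 31.1% of all genes, with a median of 0.13. Among the higher were the glutamate receptor subunit genes Gria1 (0.90 ± 0.25, adjusted p = 0.0088), Grin1 (0.61 ± 0.19) and Grin2b (0.57 ± 0.19), the last of which binds the kinase directly. Map2, of the dendritic cytoskeleton, was lower (-0.80 ± 0.21). After KCl 9 were higher and 2 lower (68.8% beside 18.0% of all genes), with a median of 0.57 against -0.01 over all genes. The change of this enrichment with KCl, tested itself, passed for none of the 16 (median 0.14 against 0.07 over all genes). With Pan-TurboID none passed at rest, and 3 were higher after KCl (18.8% beside 8.75% of all genes). In inputs of the KCl experiment 1 rose with KCl and 5 fell (37.5% beside 15.4% of all genes, median -0.33). After DHPG 12 were higher and 4 lower (all 16, beside 79.7%), with a median of 0.53 against 0.04. Homer1, a scaffold gene, had 1.69 ± 0.38 in depolarized pulldowns over inputs (adjusted p = 0.0060) and -1.56 ± 0.15 after DHPG (adjusted p = 3.2e-08). In the test of PSD95 enrichment beyond Pan none of either list passed.

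The genes whose group means most resembled those of each member were found by Pearson's r of log2 CPM over the 14 groups, among 5417 genes. For Camk2a these included Dpysl5 and Nsdhl (r = 0.97 each), and for Camk2g Sec23a (0.97) and Usp9x (0.94). For Camk2b they were Crmp1 (0.95), Tuba1a (0.94) and Met (0.93), and for Camk2n1 Tbca (0.96), Gm12728 (0.95) and Nudcd3 (0.95). For Camk2d, whose closest match was the least close of the 5 members, they included Ckap5 (0.93) and Nfia (0.86). The points share libraries and experiments, so that the values describe these groups only.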

How the data were processed

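Footprints were counted in 38 libraries. Per the study's methods, the authors trimmed and demultiplexed the reads, removed the molecular identifier bases and used Rsubread for alignment to mm10. The deposited counts are whole numbers of footprint 5′ ends per exon segment of CDS, 5′ UTR and 3′ UTR, made by the authors with plastid for reads of 25 to 100 nt with offset 0. Alignment file names carry marks for removed ribosomal RNA and duplicates. The plastid version, whether strand was used, and how reads aligning in several places were handled are not given in the sources used here. The authors also deposited RPKM values, which were not used.

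Counts of the longest transcript of each gene (CDS and UTRs together) were summed over segments, and gene symbols were found for 66750 of 67238 coding transcripts (99.3%). Depth and replicates: the counts of same-group libraries differed by more than sampling noise in all 34 pairs (chi-square per degree of freedom 1.50 to 53.2), so none was taken for a library deposited more than once. Totals per library were 5906281 to 35643247 counts over all transcripts. Levels are CPM of CDS totals. Tests used edgeR 4.0.16 in R 4.3.3 (quasi-likelihood F test, robust, TMM scaling, filterByExpr, Benjamini-Hochberg, threshold 0.05), with UTR counts scaled by CDS factors. Alternatives were edgeR's likelihood ratio test, DESeq2 1.42.0, RLE factors, library totals, no filter, a replicate block, another transcript, removal of the CDS length trend (loess span 0.3), other inputs as reference, and leaving out libraries. The main tests and the fits with libraries left out had no replicate block.

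File headers place each replicate number of the KCl experiment in a processing run of its own (8 libraries each) and the other 14 libraries together in another run. The numbers of that experiment therefore pair samples, as the methods also state. The methods also describe each input as a part of the fraction used for its pulldown in all experiments. In the KCl experiment, deviations of same-numbered libraries correlated at -0.23 to 0.60 (over 0.1 in 41 of 84 pairs), and those of different numbers at -0.45 to 0.38. Members and lists were chosen with earlier results of these data known, and the exon blocks after their values were seen. The genes named are the members, the 3 genes with the smallest p per direction of each list where they passed, the 3 closest to each member, Eif4g2 and Dlg4. Some genes that this rule names are not reported here. The hub and kinase blocks follow the exons of the longest transcript. Pulldown over input ratios of pairs used counts plus 0.5, scaled to library totals, for genes with a mean count of at least 20.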

Additional observations from a re-analysis of the deposited data

Results flagged for a closer look

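The pulldown enrichment of Camk2d with TurboID-PSD95 differed between DHPG-treated and resting neurons by -0.62 ± 0.17 on the log2 scale (adjusted p = 0.042), tested as a difference of differences over 12 libraries. In that test 6.80% of all genes passed, and the call of Camk2d held in 8 of 14 alternatives. It was lost when any DHPG replicate number was left out. Camk2d was lower in the pulldown than in the input in 3 of 3 DHPG pairs. How many genes did the same was not computed, and 4812 of 12257 genes tested were called lower in DHPG pulldowns. The DHPG libraries and the resting libraries came from different experiments and processing runs, and DHPG and experiment cannot be told apart. Groups of 2 or 3 libraries were not tested for outlying libraries.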

How the results depend on the processing

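Of 1285 recomputed values of the members, 1176 kept direction and side of the threshold, 54 lost the call, 15 gained one and 40 changed sign; the sign changes belong to 24 results, none of which had passed. The groups held 2 or 3 libraries, which limits the precision of each call. DESeq2 gave no adjusted p for the 3′ UTRs of Camk2a and Camk2g in TurboID-PSD95 pulldowns, which were left out. The cause was not tested for any change below, other than fewer samples where libraries were left out.

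Counts of genes that passed ranged, with libraries left out in turn, as follows. For TurboID-PSD95 pulldowns over inputs they ranged from 16 to 3588 at rest and from 17 to 2900 after KCl, and for Pan-TurboID from 0 to 1221 and from 0 to 590. For PSD95 beyond Pan they were 0 to 1. For the KCl response they were 515 to 2095 in inputs, 92 to 1446 in TurboID-PSD95 pulldowns and 74 to 713 in Pan pulldowns, and 1178 to 2825 in knockdown inputs. For the change with DHPG they were 84 to 1128, and for the knockdown change of the KCl response 0 to 8 in inputs and 22 to 163 in pulldowns. For 5′ UTRs they were 8 to 82 in inputs and 0 to 300 in pulldowns, and for 3′ UTRs 15 to 36 and 0 to 15.

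With the likelihood ratio test the counts were 1896 and 1824 (Pan at rest and after KCl), 2 (KCl change of enrichment), 148 (knockdown change in pulldowns), 75 and 160 (5′ UTR inputs and pulldowns) and 3 (3′ UTR pulldowns). With DESeq2 they were 2127 and 2249 (Pan), 2 (PSD95 beyond Pan), 1 (KCl change of enrichment), 1370 and 1044 (KCl response in TurboID-PSD95 and Pan pulldowns), 1313 (DHPG change), 147 (knockdown change in pulldowns), 117 and 237 (5′ UTR) and 72 and 23 (3′ UTR). With the length trend removed they were 2575 and 1383 (TurboID-PSD95 at rest and after KCl), 383 and 331 (Pan), 0 (PSD95 beyond Pan) and 401 (DHPG change). Without the filter on low counts they were 0 (PSD95 beyond Pan), 35 and 184 (knockdown change in inputs and pulldowns) and 22 and 1 (3′ UTR). With library totals alone PSD95 beyond Pan passed 0 genes.

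With the replicate number as a block the counts were 2414 and 2430 (Pan), 982 (KCl response in Pan pulldowns), 1805 (DHPG change), 98 (knockdown change in pulldowns), 143 and 212 (5′ UTR) and 14 (3′ UTR pulldowns). Deviations of same-numbered libraries correlated at -0.13 to 0.047 in the DHPG experiment and at -0.0037 to 0.052 in the knockdown experiment, where the methods describe an input and its pulldown as parts of 1 fraction. Beyond Camk2g with Pan-TurboID, the block changed no other call of a member.

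Sign changes with libraries left out are given as ranges of log2 values. For Camk2a they were -0.13 to 0.060 (PSD95 beyond Pan), -0.30 to 0.021 (KCl, TurboID-PSD95 pulldowns), -0.039 to 0.086 (DHPG change), -0.41 to 0.92 (5′ UTR pulldowns), -2.14 to 1.56 (3′ UTR inputs) and -1.01 to 1.07 (3′ UTR pulldowns). For Camk2b they were -0.0050 to 0.31 (TurboID-PSD95 after KCl), -0.015 to 0.085 (PSD95 beyond Pan), -0.080 to 0.040 (KCl, inputs), -0.081 to 0.048 (knockdown at rest), -0.20 to 0.11 (knockdown change in pulldowns) and -0.73 to 0.49 (3′ UTR inputs). For Camk2d they were -0.22 to 0.13 (KCl change of enrichment), -0.063 to 0.35 (knockdown after KCl) and -0.11 to 0.76 (5′ UTR pulldowns). For Camk2g they were -0.096 to 0.019 (PSD95 beyond Pan), -0.37 to 0.10 (5′ UTR inputs) and -0.077 to 0.51 (5′ UTR pulldowns). For Camk2n1 they were -0.032 to 0.13 (PSD95 beyond Pan), -0.58 to 0.034 (KCl change of enrichment) and -0.62 to 0.076 (KCl, knockdown pulldowns).

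Other settings changed these signs. Camk2b in inputs with KCl had 0.0046 (DESeq2), 0.0048 (RLE factors) and 0.083 (length trend removed), and in knockdown at rest 0.029 with DESeq2 and 0.029 with RLE factors. Camk2g in knockdown at rest had 0.011 with DESeq2, 0.011 with RLE factors and 0.021 with the transcript of the highest count. In 3′ UTR inputs Camk2g had 0.0041 (DESeq2), 0.0012 (RLE factors) and 0.023 (replicate block). Camk2d had 0.070 (KCl change of enrichment, own inputs as reference), Camk2n1 -0.059 (KCl, TurboID-PSD95 pulldowns, length trend removed) and Camk2a -0.12 (DHPG change, library totals alone).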
